A study of Mus musculus with 12 samples.

Results

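The ATR and ATM checkpoint genes examined here were *Atr*, *Atrip*, *Atm*, *Chek1*, *Chek2*, *Wee1*, *Clspn*, *Timeless*, *Tipin* and *Rad17*. They were chosen by gene symbol, and all 10 were found among the 24091 genes of the expression table. RNA sequencing had been performed on 12 mouse samples in 4 groups of 3. The tumors were medulloblastomas of Brca2-mut;Trp53-mut mice (GB344, GB359 and GB370), and the adjacent samples were cerebellum labelled normal from the same 3 animals. The control cerebella came from 3 Brca2-mut;Trp53-WT mice (GB361, GB508 and GB512) and 3 Brca2-WT;Trp53-mut mice (GB517, GB519 and GB520), all of them adult. In Brca2-mut mice a Cre recombinase under the human *GFAP* promoter, active in the developing central nervous system, removes part of *Brca2*, so that the loss is limited to cells of that lineage. Trp53-mut is a knockout in all cells. No cerebellum carrying both wild-type genes was analysed here, so every control carried a mutation, and tumor and adjacent tissue shared both mutations.

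Sister pathways guard dividing cells against damaged DNA. ATR, brought by its partner ATRIP to single-stranded DNA at stalled replication forks, phosphorylates the kinase CHK1 (*Chek1*). ATM responds to double-strand breaks and phosphorylates CHK2 (*Chek2*). Claspin (*Clspn*) and the TIMELESS-TIPIN complex travel with the fork and pass the signal from ATR to CHK1, while RAD17 loads the ring-shaped 9-1-1 clamp that helps to activate ATR. WEE1 holds the cyclin-dependent kinases in check. In the cerebellum, granule cell progenitors divide rapidly after birth under Hedgehog signaling and are the cell of origin of Hedgehog-driven medulloblastoma, whereas most cells of the adult cerebellum no longer divide.

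In the RefSeq annotation of GRCm38.p6, 5 of the 10 genes lie on chromosome 9. *Chek1* spans chr9:36708482-36726658, *Atm* chr9:53437122-53536828, *Tipin* chr9:64281491-64305422, *Atr* chr9:95857597-95953217 and *Atrip* chr9:109059747-109074124. The others are *Clspn* (chr4:126556957-126594533), *Chek2* (chr5:110839800-110874140), *Wee1* (chr7:110122059-110143299), *Timeless* (chr10:128232063-128252941) and *Rad17* (chr13:100617164-100651061). *Atr* overlaps *1700065D16Rik*, which ranged from 0.0 to 2.63 TPM, and *Atrip* overlaps the read-through locus *Atrip-trex1*. How reads of overlapping genes were divided is not given in the sources used here.

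Sequences upstream of the start are shown for *Chek1*, *Chek2* and *Clspn*, the members with the largest differences between tumor and control cerebella. RefSeq windows of 250 bases before the start were matched for 8 of the 10 genes. *Wee1* and *Tipin* had no match, and the *Timeless* window belongs to a start inside the gene and is not printed. The start used for *Chek2* also lies inside the annotated span of the gene, which holds 183 of the 200 bases printed, and 4 of the 200 are in an annotated UTR. The starts used for *Atm* and *Clspn* lie inside the annotated spans as well, so part of their 250-base windows is within the gene. The print of *Clspn* ends before its span. The stretches run from base -200 to -1 before the start for *Chek1* and *Chek2* but from -250 to -51 for *Clspn*, so that they cover different distances. A second CCAAT of *Clspn* at -21 to -17, which is within its annotated span, and part of its G-run match at -62 to -36 therefore fall outside the print. Capitals mark CCAAT, which appears as ATTGG on the printed strand, and an E2F match (TTTNNCGC with each N being C or G, printed here as its reverse complement). The stretches are *Chek1* at chr9:36726659-36726858 on the minus strand, *Chek2* at chr5:110839783-110839982 on the plus strand and *Clspn* at chr4:126556730-126556929 on the plus strand, each 200 bases written 5′ to 3′ along the gene.
Chek1: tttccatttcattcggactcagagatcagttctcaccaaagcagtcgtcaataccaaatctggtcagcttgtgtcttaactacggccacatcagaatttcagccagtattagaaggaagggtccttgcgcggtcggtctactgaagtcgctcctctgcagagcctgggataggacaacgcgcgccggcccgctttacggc
Chek2: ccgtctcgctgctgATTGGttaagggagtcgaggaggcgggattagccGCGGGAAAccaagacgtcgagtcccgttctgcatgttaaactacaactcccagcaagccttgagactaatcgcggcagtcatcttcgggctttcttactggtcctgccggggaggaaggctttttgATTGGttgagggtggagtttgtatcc
Clspn: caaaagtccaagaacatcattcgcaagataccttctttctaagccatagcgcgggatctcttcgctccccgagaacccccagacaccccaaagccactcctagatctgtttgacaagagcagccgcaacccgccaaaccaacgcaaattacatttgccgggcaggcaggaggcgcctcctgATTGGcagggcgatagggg
On either strand of the 250-base windows, CCAAT was found in 4 of 8 members (*Atm*, *Atrip*, *Chek2* and *Clspn*), against 33.8% of all 32851 windows. The E2F letters were found in *Chek2* alone, against 1.86% of all windows. TTTGAA, the core of the cell cycle homology region, was found in none of the 8, against 16.0%. Runs of at least 3 G repeated 4 times with 1 to 7 bases between them, the pattern that can fold into a G-quadruplex, were found in *Atr* and *Clspn*, against 16.7% of all windows. A match is a description of the letters, and their absence says nothing about the factor.

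Values are TPM, the share of each gene among all transcripts after correction for transcript length, and the read depth behind them is unknown. Between 15088 and 15803 genes reached 1 TPM in a sample, and no 2 samples held identical values. *Brca2* measured 8.22 to 14.6 TPM in the tumors and 3.24 to 4.40 TPM in the control cerebella, and *Trp53* measured 124 to 130.5 TPM in the tumors, 47.1 to 49.4 TPM in Brca2-WT;Trp53-mut and 33.1 to 37.2 TPM in Brca2-mut;Trp53-WT cerebella. These values add up all transcripts of a gene, exons outside the deletions included, so they do not check the genotypes. The label of the adjacent tissue was checked against cell type markers. The summed TPM of 5 granule progenitor markers (*Atoh1*, *Gli1*, *Gli2*, *Sfrp1* and *Barhl1*) was 592 to 1498 in the tumors, 360.3, 380 and 67.3 in the adjacent cerebella of GB344, GB359 and GB370, and 34.9 to 41.1 in the control cerebella. A sum over 10 proliferation genes was 819.8 to 968 in the tumors, 372, 232 and 41.6 in the same adjacent samples and 14.5 to 55.2 in the controls, where GB512 was the highest and the other 5 reached at most 21.6. Adjacent cerebellum of GB344 and GB359 therefore stood apart from that of GB370 and from the controls, and *Atoh1* was listed at 0 in 1 control (GB508). Markers of mature cerebellum were lower in the tumors, with 56.3 to 151 summed TPM for 5 granule neuron genes against 1813 to 2362 in the controls and 70.0 to 335 for 5 Purkinje cell genes against 4877 to 8141. Choroid plexus genes separated the control genotypes, with 3942 to 5158 summed TPM in Brca2-WT;Trp53-mut and 17.6 to 872 in Brca2-mut;Trp53-WT cerebella. In such bulk tissue, more cells that express a gene and more RNA per cell cannot be told apart.

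The comparison of tumors with all 6 control cerebella asked how the checkpoint genes were expressed in medulloblastoma relative to adult cerebellum of the control genotypes, each of which carries a mutation. *Clspn*, *Chek1*, *Chek2*, *Timeless* and *Tipin* rose in the tumors, between 3.59-fold and 22.5-fold by mean TPM. *Atm*, *Wee1* and *Atr* were higher by 1.55-fold to 2.06-fold in mean TPM. Their differences of mean log2(TPM + 1), 0.59 to 0.95, were below the minimum of 1 required for a call. *Atrip* was at nearly the same level, and *Rad17* was lower. In the limma fit, 5 of 10 members were called higher (adjusted P under 0.01 and a log2 difference of at least 1) and 0 were called lower, against 14.4% of 16241 genes tested called higher and 21.5% called lower. Among the members called, *Chek1* passed the expression filter of 1 TPM in 3 samples through the tumors. At an unadjusted P under 0.05, 8 members were higher and 1 was lower, against 32.9% and 40.6% of all genes. The members' median log2 difference was 1.38, against -0.11 for all genes. In 8 members every tumor was above every control, as in 28.3% of all genes, and in 1 every tumor was below every control, as in 35.7% of all genes. Changes were common in this comparison, since 71.3% of all genes had an adjusted P under 0.05.

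**Figure D1:**
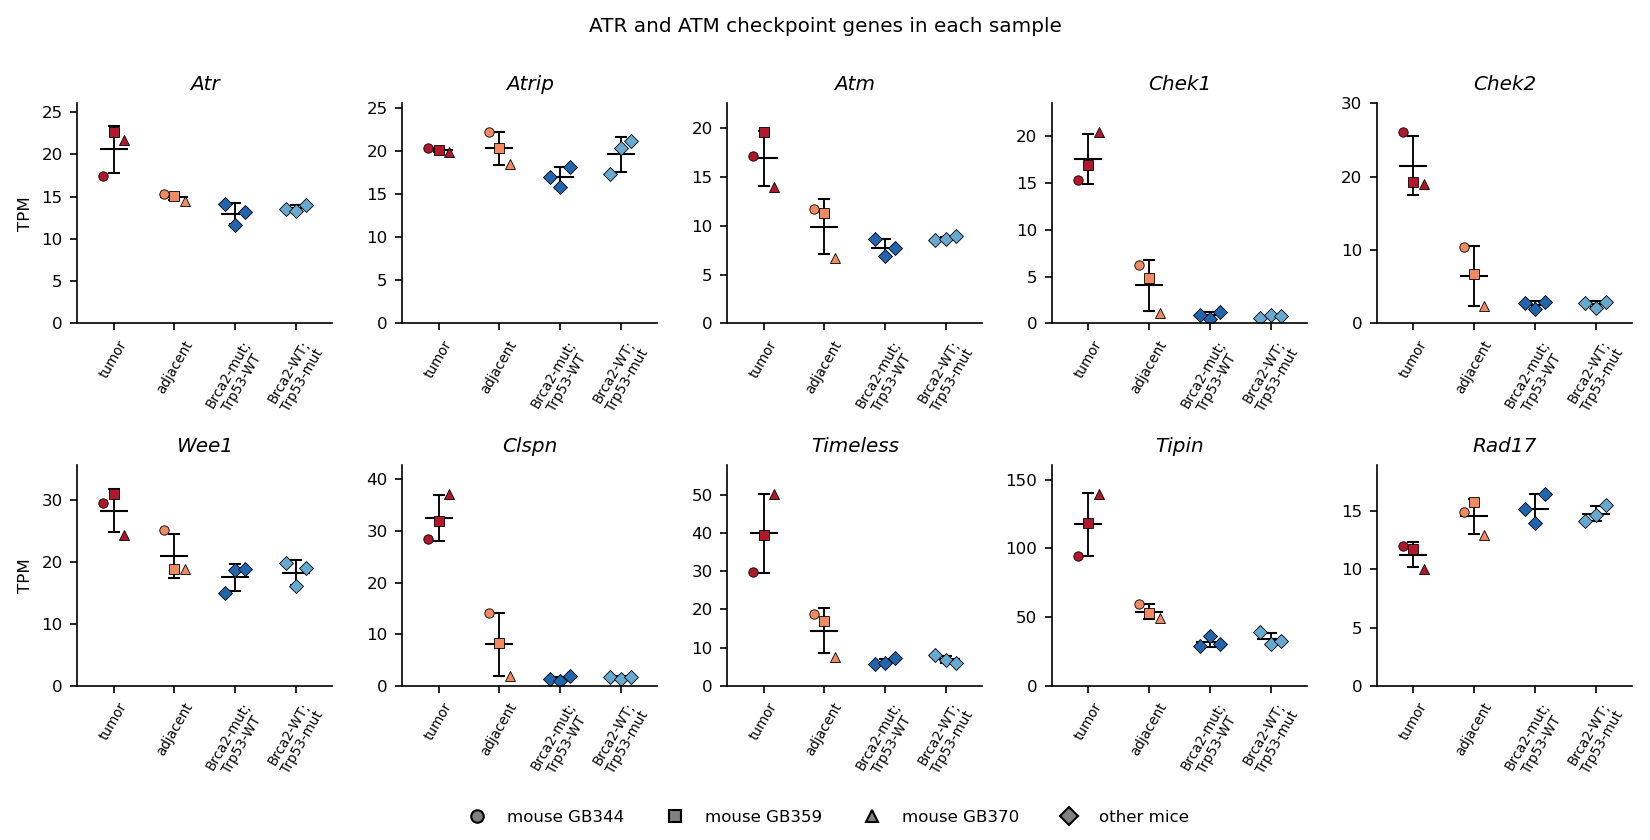
TPM of the 10 checkpoint genes in each of the 12 samples, on linear axes from 0, with points for samples, horizontal bars for group means and error bars for the SD (n = 3). *Chek1*, *Chek2*, *Clspn*, *Timeless* and *Tipin* are highest in the 3 tumors, and for the first 4 of these the adjacent cerebellum of GB370 (triangle) lies near the controls.

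Among the genes that work at the fork, *Clspn* measured 28.5, 32.0 and 37.2 TPM in the tumors of GB344, GB359 and GB370. In the 6 controls it ranged from 0.858 to 1.77 TPM with a median of 1.53 TPM. The lowest tumor was thus 16.1 times the highest control, and the log2 difference was 3.78 ± 0.16 (SE, adjusted P = 2.46e-08). CLASPIN is the adaptor that presents CHK1 to ATR, and its gene had the largest difference of the 10. *Timeless* was present at 29.8, 39.6 and 50.4 TPM in the same tumors and at 5.75 to 7.95 TPM, median 6.33 TPM, in the controls. Its groups did not overlap, and the log2 difference was 2.41 ± 0.16 (SE, adjusted P = 3.98e-07). For *Tipin*, whose product binds TIMELESS and single-stranded DNA binding protein RPA, the tumors held 94.3, 118 and 139.7 TPM. The controls held 28.5 to 38.8 TPM with a median of 31.5 TPM, so that *Tipin* was the most abundant member in both groups. It differed by 1.80 ± 0.13 on the log2 scale (SE, adjusted P = 7.52e-07).

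Of the effector kinases, *Chek1* reached 15.3, 16.9 and 20.5 TPM in the tumors. All 6 controls lay between 0.458 and 1.25 TPM, with a median of 0.851 TPM. The groups were far apart, with the lowest tumor 12.2 times the highest control and a log2 difference of 3.35 ± 0.16 (SE, adjusted P = 4.24e-08). Of the controls, only GB512 (1.25 TPM) reached the 1 TPM minimum of the expression filter, so *Chek1* entered this comparison through the tumors. Its P value and call therefore concern a gene below that minimum in most controls. The ratio of mean TPM was 21.3, over a control mean of 0.823 TPM, a larger change than the difference of log2(TPM + 1) shows. *Chek2* measured 26.1, 19.3 and 19.0 TPM in the tumors and 1.97 to 2.96 TPM, median 2.79 TPM, in the controls. No tumor overlapped the controls, and the log2 difference was 2.64 ± 0.15 (SE, adjusted P = 1.27e-07). *Wee1* moved less, with 29.5, 31.0 and 24.3 TPM in the tumors against 15.0 to 19.7 TPM, median 18.7 TPM, in the controls. Its groups did not overlap either, but the log2 difference of 0.63 ± 0.12 (SE, adjusted P = 7.02e-04) was under the minimum and *Wee1* was not called.

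The apical kinases differed less than their targets. *Atm* measured 17.1, 19.7 and 14.0 TPM in the tumors and 6.91 to 8.92 TPM, median 8.59 TPM, in the controls. All tumors were above all controls, and the log2 difference of 0.95 ± 0.13 (SE, adjusted P = 6.64e-05) fell just under the minimum of 1. It passed that minimum with median-of-ratios scaling (1.06), quantile normalization (1.13), smaller pseudocounts (1.02 and 1.03) and without the tumor of GB370 (1.07). *Atr* was present at 17.4, 22.7 and 21.7 TPM in the tumors and at 11.6 to 14.2 TPM, median 13.4 TPM, in the controls. These groups did not overlap, and the log2 difference was 0.59 ± 0.11 (SE, adjusted P = 6.93e-04). *Atrip*, which encodes the obligate partner of ATR, was at 20.4, 20.1 and 19.9 TPM in the tumors and at 15.9 to 21.1 TPM, median 17.7 TPM, in the controls. Its groups overlapped, and the difference of 0.14 had a 95% confidence interval from -0.10 to 0.37 (adjusted P = 0.265). *Rad17* ran the other way, at 11.98, 11.78 and 10.02 TPM in the tumors against 14.0 to 16.5 TPM, median 14.9 TPM, in the controls. Every tumor was below every control, and *Rad17* differed by -0.39 ± 0.10 (SE, adjusted P = 0.00490), under the fold change minimum. The median of all genes lay at -0.11 in this comparison and moved to 0.04 with quantile normalization, which left *Rad17* at -0.22 (adjusted P = 0.065). Relative to that median, *Rad17* differed by -0.28 and *Atrip* by 0.24. The other 618 genes tested on chromosome 13, where *Rad17* lies, had a median of -0.38.

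**Figure D2:**
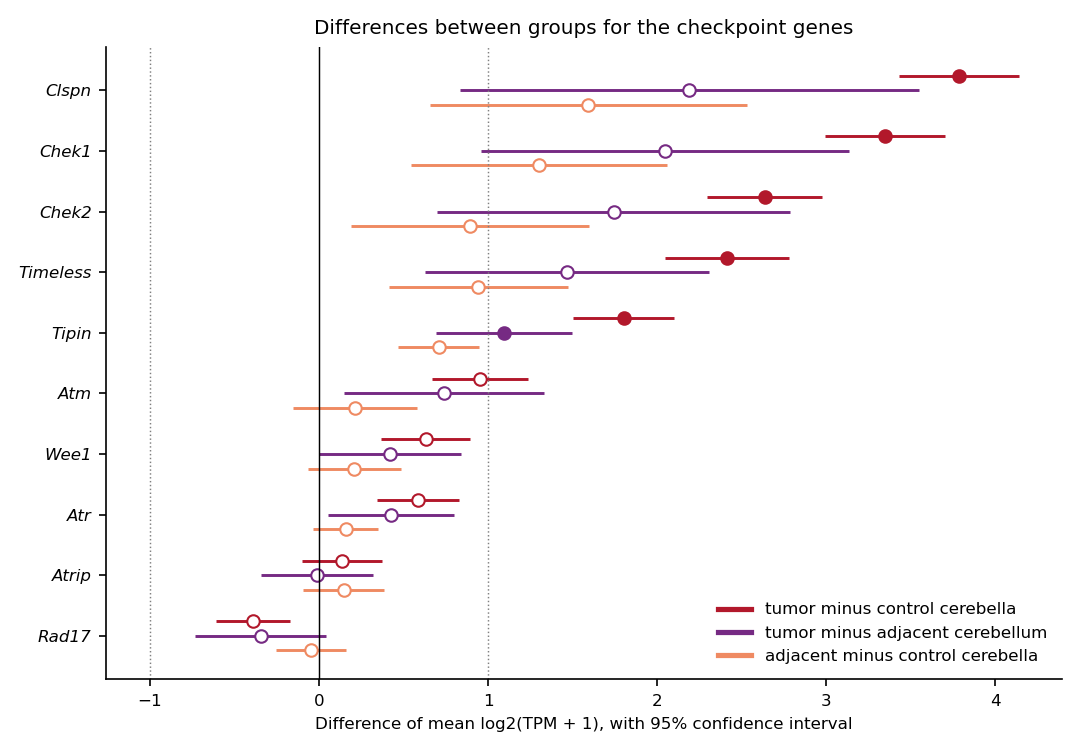
Differences of mean log2(TPM + 1) for each checkpoint gene in 3 comparisons, with 95% confidence intervals from limma. Filled points were called (adjusted P under 0.01 and a difference of at least 1, dotted lines), and open points were not. *Clspn*, *Chek1*, *Chek2*, *Timeless* and *Tipin* are filled against control cerebella (1.80 to 3.78), while *Tipin* alone is filled against adjacent cerebellum (1.09).

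Each control genotype was also taken alone, which asks whether the tumor differences depended on the choice of control. Against Brca2-WT;Trp53-mut cerebella 5 members were called higher, compared with 13.5% of 15970 genes tested. Against Brca2-mut;Trp53-WT cerebella 6 members were called higher, compared with 14.3% of 15767 genes tested. The added call was *Atm*, at 1.03 ± 0.18 (SE, adjusted P = 0.00179) against the Brca2-mut;Trp53-WT and 0.87 ± 0.15 (SE, adjusted P = 0.00215) against the Brca2-WT;Trp53-mut cerebella. *Clspn* differed by 3.69 and 3.88, and *Chek1* by 3.38 and 3.32, from the Brca2-WT;Trp53-mut and the Brca2-mut;Trp53-WT cerebella. These comparisons share the 3 tumors. Between the control genotypes themselves, limma called 0 of the 9 members tested, against 0.0578% of 15575 genes called in either direction, and no member had an unadjusted P under 0.05. *Chek1* did not pass the expression filter there. The members' log2 differences, Brca2-mut;Trp53-WT minus Brca2-WT;Trp53-mut, ran from -0.19 (*Clspn* and *Atrip*) to 0.04 (*Rad17*), and the groups overlapped for all 10.

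Tumor and adjacent cerebellum of the same mice, which share both mutations, were compared next, with the tumors shared with the comparison above. The fit had no mouse term, so it is unpaired unless the mouse is named as a block. Only *Tipin* was called, with 59.64, 53.04 and 49.16 TPM in the adjacent samples of GB344, GB359 and GB370 and a log2 difference of 1.09 ± 0.17 (SE, adjusted P = 0.00240). Against the background, 1 of 10 members was called higher and 0 lower, while 4.76% of 15845 genes were called higher and 18.0% lower. At an unadjusted P under 0.05, 8 members were higher, against 21.6% of all genes, and none lower. In 7 members every tumor was above every adjacent sample, as in 23.7% of all genes, and *Rad17* was below in every tumor, as in 38.9% of all genes. *Clspn* (2.19 ± 0.57 SE, adjusted P = 0.0179), *Chek1* (2.05 ± 0.46 SE, adjusted P = 0.0102), *Chek2* (1.74 ± 0.44 SE, adjusted P = 0.0158), *Timeless* (1.47 ± 0.35 SE, adjusted P = 0.0134) and *Atm* (0.74 ± 0.25 SE, adjusted P = 0.0442) did not pass. At an adjusted P under 0.05 with no fold minimum they did, making 6 members, all of them higher. Of 15845 genes, 2870 passed and were higher, and 50.4% passed in either direction. With the mouse as a block, 2 members were called, *Tipin* and *Chek2* (adjusted P = 0.00920), against 701 of 15845 genes called higher. The count was 0 without the tumor of GB370 or the adjacent sample of GB359, where 189 and 210 genes were called higher. It reached 4 without the adjacent sample of GB344, where 913 genes were called higher.

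The adjacent cerebella were not alike in every member. *Atr* was even, at 15.2, 15.1 and 14.5 TPM in those of GB344, GB359 and GB370, and *Atrip* lay between 18.5 and 22.3 TPM and *Rad17* between 12.9 and 15.8 TPM. *Atm* was at 11.8, 11.4 and 6.71 TPM, the last of these below every control, and *Wee1* at 25.1, 18.9 and 18.8 TPM. The effector and fork genes differed more. *Clspn* measured 14.1, 8.21 and 1.81 TPM in the same order of mice, *Chek1* 6.28, 4.82 and 1.08 TPM, and *Chek2* 10.4, 6.73 and 2.33 TPM. *Timeless* followed with 18.7, 17.0 and 7.59 TPM. For *Chek1*, *Chek2* and *Timeless* the GB370 sample was within the range of the controls, and for *Clspn* it was just above the highest control (1.81 against 1.77 TPM). Compared with the 6 controls, 0 members were called in limma (0.224% of 16091 genes were called higher and 0.0124% lower), and 5 were higher at an unadjusted P under 0.05, against 22.1% of all genes. *Tipin* came closest, at 0.71 ± 0.11 (SE, adjusted P = 0.00982), and *Tipin*, *Clspn* and *Atr* were above every control in every adjacent sample, as were 11.7% of all genes. With no fold minimum and an adjusted P under 0.05, *Chek1*, *Clspn*, *Timeless* and *Tipin* passed, all of them higher. Of 16091 genes, 1627 passed and were higher, and 15.7% passed in either direction. Without the adjacent sample of GB370, 4 members were called, namely *Clspn* (2.28), *Chek1* (1.85), *Chek2* (1.39) and *Timeless* (1.32), while the share of all genes called higher rose to 3.51%.

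The position of each adjacent sample between the mean of the controls and the tumor of its own mouse was expressed as a percentage of that distance in TPM. For *Chek1* the adjacent cerebellum lay 37.8% of the way in GB344, 24.9% in GB359 and 1.33% in GB370. *Clspn* gave 46.7%, 22.2% and 1.02%, *Chek2* 33.2%, 24.8% and -1.67%, and *Timeless* 52.1%, 31.5% and 2.30%. The 10 proliferation genes had medians of 40.7%, 22.8% and 1.75%, and the 5 granule progenitor genes 55.6%, 26.1% and 2.69%. *Tipin* had 43.7% and 23.8% in the first 2 mice but 15.4% in GB370, where 10 proliferation genes ran from 0.441% to 4.47% and 16 replication genes from -10.8% to 7.41%. *Chek1*, *Chek2*, *Clspn*, *Timeless* and *Tipin* thus had the order of the marker medians across the 3 mice. In GB370 the share of *Tipin* was above every gene of the proliferation and replication lists. Shares over all genes were not computed, so this does not single out *Tipin*. *Cdc25b*, outside those lists, measured 24.5 TPM in the adjacent cerebellum of GB370, between the control mean (16.1) and the tumor of GB370 (59.2). The other 5 members were not placed on this scale. The markers' part in the differences was not tested.

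**Figure D3:**
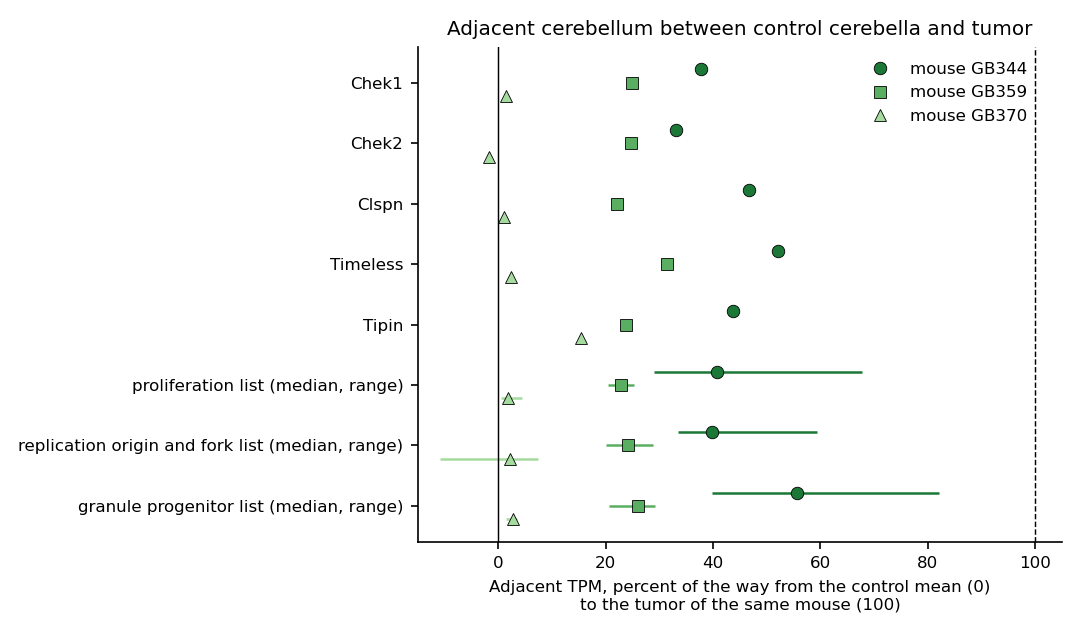
Level of the adjacent cerebellum as a percentage of the distance in TPM from the mean of the 6 control cerebella (0) to the tumor of the same mouse (100), for 5 checkpoint genes and for marker lists (point, median; line, lowest to highest gene). GB370 lies within 3% of 0 for every gene and list median shown other than *Tipin* (15.4%), and GB344 is the highest of the 3 mice throughout.

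Pairs of genes that act together were compared within each sample, which asks whether partners kept their balance. The measure is the log2(TPM + 1) of the first gene minus that of the second, tested with an exact two-sided permutation over the 84 splits of 3 tumors and 6 controls and adjusted over 6 pairs. *Atr* minus *Atrip* was -0.22, 0.17 and 0.12 in the tumors of GB344, GB359 and GB370 and -0.58 to -0.25 in the controls, so every tumor was above every control (difference 0.45, exact permutation adjusted P = 0.0143). *Atr* minus *Atm* was 0.02, 0.20 and 0.59 in the tumors and 0.57 to 0.70 in the controls. These overlap, and the difference of -0.36 (exact permutation adjusted P = 0.0238) did not pass 0.05 without the tumor of GB344 or that of GB359 (0.0714 each). *Chek1* minus *Chek2* was -0.74, -0.19 and 0.10 in the tumors against -1.24 to -0.75 in the controls (difference 0.71, exact permutation adjusted P = 0.0143). With pseudocounts of 0.1 and 0.01 this difference grew to 1.30 and 1.41. *Timeless* minus *Tipin* was -1.63 to -1.45 in the tumors and -2.42 to -1.94 in the controls, so that *Timeless* gained on its partner (difference 0.61, exact permutation adjusted P = 0.0143). *Wee1* was compared with *Pkmyt1*, which encodes the other inhibitory kinase of CDK1, and the balance went from between 1.05 and 1.45 in the controls to 0.10, -0.43 and -1.14 in the tumors (difference -1.74, exact permutation adjusted P = 0.0143). The raw P of 0.0119 is the smallest that these splits allow, reached by every pair other than *Atr* and *Atm*. Each difference is the log2 difference of the first gene minus that of the second, so it adds no separate evidence. Every tumor was above every control in 28.3% of all single genes and below in 35.7%. How many other gene pairs separate the groups was not computed, so these P values do not single out the pairs. *Chek1* minus *Clspn* differed by -0.44 (exact permutation adjusted P = 0.0143), but both genes are near 1 TPM in controls and the difference shrank to -0.13 and -0.07 with pseudocounts of 0.1 and 0.01 (exact permutation adjusted P = 0.512 and 0.821).

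**Figure D4:**
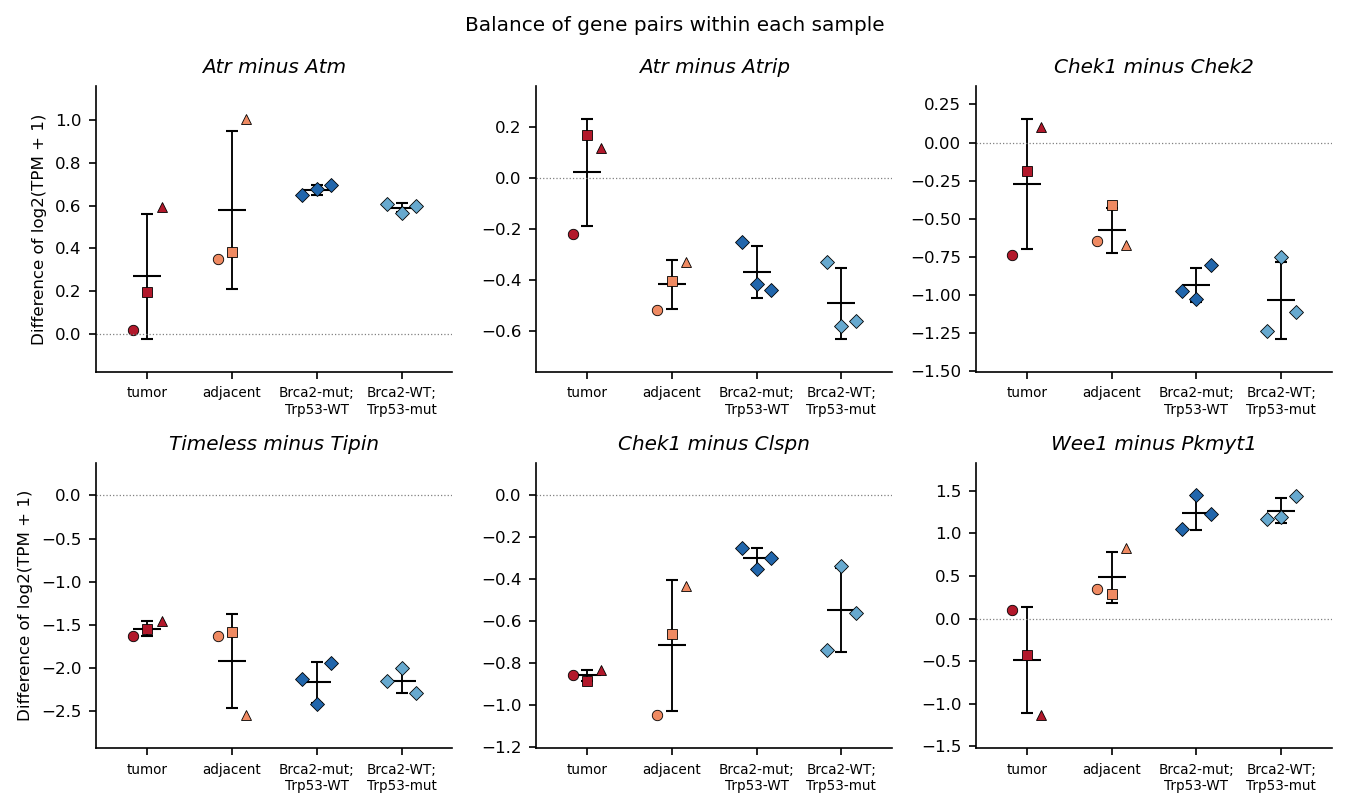
Difference of log2(TPM + 1) between the genes of 6 pairs in each sample, with group means and SD (n = 3). Symbols are as in the plot of the members' TPM. *Wee1* minus *Pkmyt1* falls from 1.05 or more in every control to at most 0.10 in the tumors, and *Atr* minus *Atm* overlaps between tumors and controls.

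The genes around the members were taken from pathway lists. In the tumors against the 6 controls, 14.4% of all genes were called higher and 21.5% lower. Of the 10 tested clamp subunits and activators of ATR, 5 were called higher and 0 lower (median 0.93, against -0.11 for all genes). *Rhno1*, which encodes a partner of the 9-1-1 clamp, measured 61.5, 73.0 and 87.7 TPM in the tumors and 9.33 to 13.2 TPM in the controls (2.68 ± 0.14 SE, adjusted P = 6.48e-08). *Rpa2* (2.21 ± 0.11 SE) and *Topbp1* (2.11 ± 0.10 SE), whose products coat single-stranded DNA and switch on ATR, also rose. *Hus1* (0.15), *Rad9a* (-0.20) and *Rpa1* (0.28) were not called, and *Hus1b* was not tested. All 5 genes of replication factor C were called higher (median 2.23). The products of *Rfc2* to *Rfc5* form the clamp loader with RAD17, whose place in the replicative loader is taken by that of *Rfc1*. *Rfc4* differed by 2.83, *Rfc3* by 2.42 and *Rfc5* by 2.23, whereas *Rad17* itself differed by -0.39, near the median of its chromosome (-0.38). In the ATM branch 2 of 9 sensors and mediators were called higher and 0 lower (median 0.26), against the 14.4% and 21.5% of all genes. They were *H2afx*, the histone that ATM marks at breaks (2.05 ± 0.10 SE), and *Mdc1*, which reads that mark (1.56 ± 0.11 SE). The break sensors *Mre11a* (0.90), *Rad50* (0.93) and *Nbn* (0.26) were not called.

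Downstream of the checkpoint, 8 of 9 genes of the CDK brake and its release were called higher (median 3.68), against 14.4% of all genes. *Ccna2* measured 155, 157 and 177 TPM in the tumors and 1.503 to 11.2 TPM in the controls, where GB512 was the highest, and *Cdk1* and *Ccnb1* differed by 5.41 and 5.16. *Cdc25a*, *Cdc25b* and *Cdc25c*, the phosphatases that CHK1 and CHK2 restrain, differed by 1.34, 1.73 and 4.17, and *Ccne1* (0.99, adjusted P = 0.0034) was not called. Of 6 genes of recovery and turnover, *Aurka* (4.25) and *Plk1* (3.92) were called higher and *Btrc* (-1.37), part of the ligase that degrades CLASPIN and WEE1, was called lower. That call was lost against each control genotype alone, at -1.47 (adjusted P = 0.0260) against Brca2-WT;Trp53-mut and -1.27 (adjusted P = 0.0411) against Brca2-mut;Trp53-WT cerebella. Its level was 7.05, 28.7 and 22.0 TPM in the tumors and 39.7 to 50.3 TPM in the controls. Among the other large kinases of the family, 1 of 4 was called, *Smg1*, which fell by 1.49 ± 0.22 (SE, adjusted P = 1.40e-04), while *Prkdc* overlapped, at 11.4 to 14.0 TPM in the tumors and 10.6 to 17.1 TPM in the controls. Targets of p53 were split, with 2 of 9 called higher (*Eda2r*, 3.03, and *Trp53inp1*, 1.10) and 2 lower (*Phlda3*, -1.36, and *Ccng1*, -1.07, the latter not called against Brca2-WT;Trp53-mut cerebella alone). Over all genes, 14.4% were called higher and 21.5% lower. The 16 genes of replication origins and forks and the 10 proliferation genes were all called higher, with medians of 3.63 and 4.95. *Mcm6* (4.96), *Mcm3* (4.83) and *Gins2* (4.33), parts of the replicative helicase and its activator, led the former, and *Top2a* (6.71), *Mki67* (6.06) and *Aurkb* (5.61) the latter. The members' median was 1.38 on the same scale. Against adjacent cerebellum 4.76% of all genes were called higher. There 4 of 10 clamp and ATR activator genes, 2 of 5 clamp loader genes and 1 of 9 ATM sensors and mediators were called higher. So were 1 of 9 CDK brake genes, 4 of 16 replication genes and 1 of 10 proliferation genes. In adjacent against control cerebella 0 genes of these lists were called in either direction, while 0.224% of all genes were called higher and 0.0124% lower. The sums of proliferation and progenitor markers given above were also higher in the tumors than in the controls. Their part in the differences of the members and lists was not tested.

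**Figure D5:**
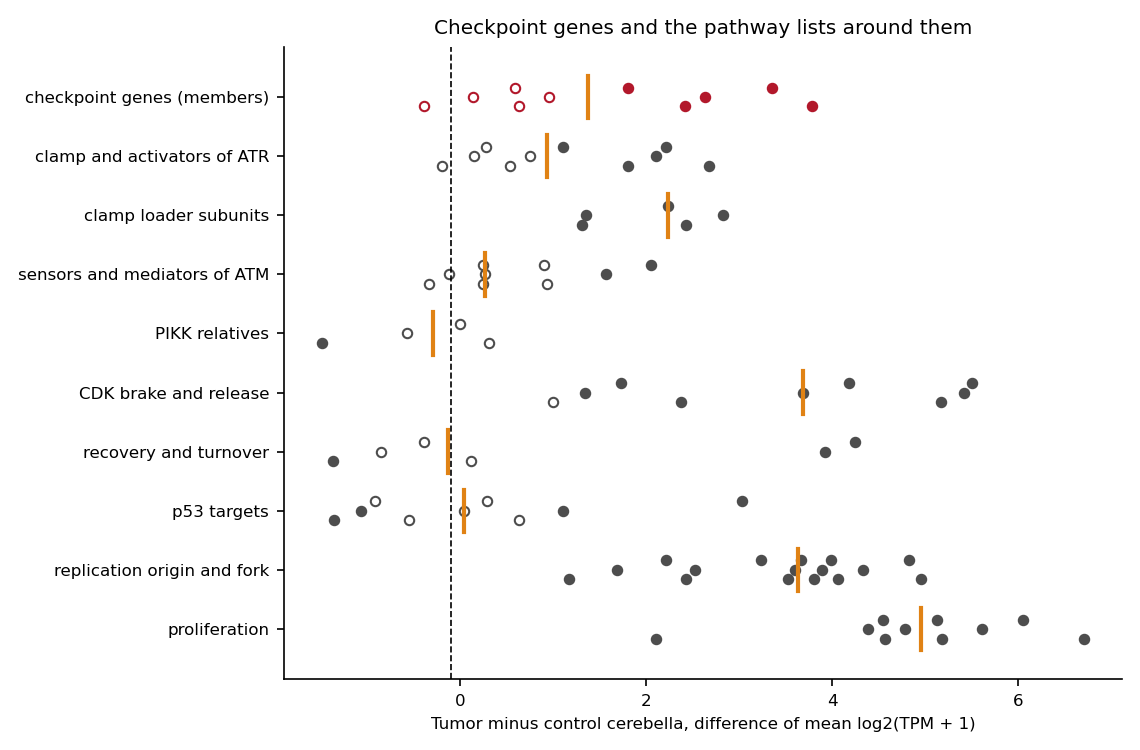
Mean log2(TPM + 1) of the 3 tumors minus that of the 6 controls for the 10 checkpoint genes and for 9 pathway lists, 1 point a gene. Filled points were called, vertical bars are list medians, and the dashed line is the median of all 16241 genes tested (-0.11). The members run from -0.39 (*Rad17*) to 3.78 (*Clspn*).

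The order of the members by level changed between the groups. In the controls *Tipin* (mean 32.7 TPM) was followed by *Atrip* (18.3), *Wee1* (17.9), *Rad17* (15.0) and *Atr* (13.3), of which neighbouring genes overlapped in range apart from *Tipin* and *Atrip*. Without overlap with *Atr* came *Atm* (8.23), *Timeless* (6.58), *Chek2* (2.60), *Clspn* (1.44) and *Chek1* (0.823), with *Atm* overlapping *Timeless* and *Clspn* overlapping *Chek1*. In the tumors *Tipin* (117 TPM) was again first, but *Timeless* (40.0) and *Clspn* (32.6) followed, then *Wee1* (28.3), *Chek2* (21.5), *Atr* (20.6), *Atrip* (20.1), *Chek1* (17.5) and *Atm* (16.9). *Rad17* (11.3) was last and did not overlap *Atm*, while every other pair of neighbours after *Tipin* and *Timeless* overlapped. The tumors themselves differed by at most 1.69 times for any member (*Timeless*), and *Atrip* varied least, by 1.02 times. The tumor of GB370 had the highest level of 4 members (*Chek1*, *Clspn*, *Timeless* and *Tipin*) and the lowest of 5 (*Atrip*, *Atm*, *Chek2*, *Wee1* and *Rad17*). With 3 tumors this is given as a description.

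Genes with the most similar profile were found by the root mean square difference of log2(TPM + 1) over the 12 samples, after subtraction of each gene's control mean, among 16497 genes. *Chek1* was nearest to *Smc2* (0.13), *Kif15* (0.14) and *Mad2l1* (0.14), which encode a condensin subunit, a mitotic kinesin and a spindle checkpoint protein. *Clspn* was nearest to *Nusap1* (0.14), *Cdc6* (0.15) and *Prr11* (0.16), and *Timeless* to *Pkmyt1* (0.13), *Ccna1* (0.14) and *Nrm* (0.14). The nearest genes to *Chek2* were *Sox12* (0.15), *Efs* (0.16) and *Sgol2a* (0.16), and those to *Tipin* were *Trerf1* (0.14), *Nav1* (0.14) and *Hnrnpa1* (0.16). *Chek1* and *Clspn* were each other's nearest member (0.32), as were *Atr* and *Wee1* (0.20) and *Chek2* and *Timeless* (0.33). *Atr* was nearest to *Coasy* (0.06), *Mettl14* (0.07) and *Smc1a* (0.07). *Atm* was nearest to *Tmem206*, *Zfp146* and *Ivns1abp* (0.08 each), *Atrip* to *Fam193a*, *Usp4* and *Tbccd1* (0.07 each), *Wee1* to *Fam120a* (0.11), *Acly* (0.12) and *Zfp354c* (0.12), and *Rad17* to *Dhdds* (0.08), *Ttc1* (0.09) and *Acbd3* (0.09).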

How the data were processed

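Gene expression was measured by RNA sequencing of poly(A)-selected RNA (NEBNext Ultra II kit) from flash frozen tissue in 12 mouse samples. The authors quantified transcripts with Salmon 0.8.1 on mm10 known genes and summed them to genes with tximport, and the deposited values are TPM, each sample summing to between 999793 and 999876. The study's own DESeq2 test used counts, which were not used here. The study names more than one site for its RNA sequencing, and the site of each of these libraries is not given in the sources used here. Read depth is unknown, so precision rests on the spread between 3 samples a group.

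Differences were taken on log2(TPM + 1) with limma 3.58.1 run under R 4.3.3, using eBayes with a mean-variance trend. A gene entered a comparison when 3 or more of its samples reached 1 TPM, and P values were adjusted by Benjamini and Hochberg's method over every gene entered. A call required both an adjusted P below 0.01 and a log2 difference of 1 or more in either direction. On this scale differences of low genes are smaller than their TPM ratios. Pair balances were tested by exact permutation. Tumor and adjacent samples were matched by mouse number: deviations from the group means of the same mouse correlated at 0.249 (GB344), 0.176 (GB359) and 0.152 (GB370). The main fit of tumor against adjacent cerebellum had no mouse term, so its SE and P values ignore this pairing. The mouse entered only as an alternative.

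The members and gene lists were chosen with earlier results of these data known. Every member was named, with up to 3 called genes of each pathway list with the largest difference, the pair genes and the 3 nearest profiles of each member; other genes of the lists were named after their values were seen. Positions and upstream sequences are from RefSeq GRCm38.p6, matched by Entrez identifier for 24045 of 24091 genes. Protein sequences were not used here. Alternatives were pseudocounts of 0.1 and 0.01, no filter or 5 TPM, median-of-ratios scaling, quantile normalization, eBayes without trend, all 4 groups in 1 fit, an adjusted P under 0.05 with no fold minimum, the mouse as a block, each sample left out and, chosen after seeing the data, the adjacent cerebellum of GB370 alone. Python 3.11.15, numpy 2.4.6, pandas 2.3.3 and matplotlib 3.10.9 were used.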

Additional observations from a re-analysis of the deposited data

How the results depend on the processing

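Of 10 members, 5 were called in tumors against controls, and 5 to 6 were called when any 1 sample was left out (5 without the control GB512). Genes called higher numbered 2341 of 16241, and 2243 to 2352 with 1 sample left out. With an adjusted P under 0.05 and no fold minimum, 9 were called against all controls (11573 of 16241 genes). Against Brca2-WT;Trp53-mut cerebella 9 were called as well (10478 of 15970 genes). Tumor against adjacent cerebellum depended most on the processing, and the number of genes called higher (in brackets) moved too. Instead of 1 member (755 of 15845 genes), 2 were called with a filter of 5 TPM (732 of 12916). Median-of-ratios scaling gave 3 (1296 of 15845), quantile normalization 6 (1603) and all 4 groups in 1 fit 5 (1278). An adjusted P under 0.05 with no fold minimum gave 6 (2870), and the mouse as a block 2 (701). With 1 sample left out 0 to 4 members were called (189 to 913 genes). Against controls, adjacent cerebella gave 4 calls instead of 0 at an adjusted P under 0.05, while genes called higher rose from 36 to 1627 of 16091. With 1 sample left out 0 to 4 members were called, the 4 coming without GB370, where 564 genes were called higher. The cause was not tested. Signs reversed for *Atrip* in tumor against adjacent cerebellum (-0.01, but 0.16 with median-of-ratios scaling, 0.25 with quantile normalization, 0.053 without adjacent GB344 and 0.12 with GB370 alone). In adjacent against control cerebella they reversed for *Atm* (-0.26) and *Chek2* (-0.10) with GB370 alone and for *Rad17* (0.033) without GB370.

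The balance of *Chek1* and *Clspn* weakened to -0.13 and -0.067 with pseudocounts of 0.1 and 0.01 and was -0.31 and -0.56 against the Brca2-WT;Trp53-mut and the Brca2-mut;Trp53-WT cerebella. That of *Atr* and *Atm* ran from -0.52 to -0.24 with 1 sample left out and did not pass without the tumor of GB344 (-0.24) or of GB359 (-0.327). Over all genes, calls numbered 5830 in tumor against controls and 11573 without a fold minimum at an adjusted P under 0.05 (5725 and 10478 against Brca2-WT;Trp53-mut, 5492 and 10001 against Brca2-mut;Trp53-WT cerebella). In tumor against adjacent cerebellum there were 3607, with 1098 to 7980 under the alternatives, and 20.9% of calls were higher, against 34.4% with median-of-ratios scaling and 42.2% with quantile normalization. Adjacent against control cerebella gave 38 (0 to 2524, with 94.7% higher and 69.5% with quantile normalization) and the control genotypes 9 (2 to 71). Depth is unknown, 3 samples a group limit the power, and both control genotypes carry a mutation.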

Other observations

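The difference of *Rad17* between tumors and controls (-0.39) was close to the median of the other 618 genes tested on chromosome 13 (-0.38), the lowest chromosome median, followed by chromosome 19 (-0.37) and chromosome 12 (-0.29). In tumor against adjacent cerebellum *Rad17* was at -0.34 and the chromosome 13 median at -0.325 (609 genes). There chromosome 19 had the lowest median (-0.40). The median of chromosome 9, where 5 members lie, was -0.10 against the controls.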
